A study of Mus musculus with 7 samples.

Results

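The genes examined were 10 that encode the MHC class II presentation machinery, namely H2-Aa, H2-Ab1, H2-Eb1, Cd74, Ciita, H2-DMa, H2-DMb1, H2-DMb2, H2-Oa and H2-Ob. They were chosen by symbol from the 25033 genes listed in each library, with earlier results of these data known. All 10 were among the 13462 genes with enough reads to be tested. RNA sequencing of primary T-cells from 4 ORP4L knock-in (KI) mice and 3 wild-type (WT) mice, 1 library per animal, asked how T-cell transcription differs in the presence of ORP4L, an oxysterol-binding protein. All mice were C57BL/6J and 15 months of age. ORP4L KI mice carried human ORP4L with a 3xFlag tag, an IRES and EGFP in the Rosa26 locus, behind the CAG promoter and a loxP-flanked stop cassette, and Cre was driven by the T-cell promoter Lck. They were taken when moribund, and WT mice were littermates. The sources used here do not say whether the WT mice carried the allele without Cre or Cre without the allele, or whether T-cells for these libraries came from blood or spleen. In general the methods describe mouse CD4+ T-cells selected with a kit for naive cells, a step that would remove antigen-presenting cells, and then cultured with IL-2 and PHA. Whether the sequenced T-cells went through both steps is not stated.

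MHC class II molecules present peptides from endocytosed proteins to CD4+ T-cells. Each is a pair of an alpha and a beta chain, which assembles in the endoplasmic reticulum around the invariant chain encoded by Cd74. In endosomes the invariant chain is cut down to a fragment, CLIP, which the H2-DM heterodimer exchanges for antigenic peptide, and H2-DO holds H2-DM back. Ciita is the transactivator that switches these genes on together, through RFX and NF-Y bound at X and Y boxes in their promoters. Dendritic cells, B cells and macrophages are the main sites of expression, and mouse T-cells, unlike activated human T-cells, are known to make little class II RNA of their own.

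On GRCm38.p6, the assembly that matches the build in the submitters' processing notes (mm10), 8 of them lie within 224 kb of chromosome 17, between 34092379 and 34316674, and Cd74 and Ciita lie on chromosomes of their own. RefSeq promoter windows, taken over the 250 bases before the annotated start, were used for 7 of the 10 genes, and those of H2-Ab1, Cd74 and Ciita are not shown. These windows are shown because shared promoter elements are what the family is known for. The letters TGATTGG, whose reverse complement holds the CCAAT core that NF-Y binds, stood on the coding strand in 6 of the 7 genes, all but H2-DMa. In 5 of these 6 the letters GNAAC, from the X box, began 28 to 31 bases before it on the same strand, and H2-DMb2 lacked that pair. Among all 32851 promoter windows of the same length, 7.23% held TGATTGG on either strand and 0.271% held GNAAC between 25 and 35 bases upstream of it. The letters were chosen after these promoters had been read, so their number is a description. The 6 stretches that follow are written 5′ to 3′ on the coding strand, with GNAAC of the pair and TGATTGG in capitals.
H2-Aa (chr17:34287852-34287919, minus strand): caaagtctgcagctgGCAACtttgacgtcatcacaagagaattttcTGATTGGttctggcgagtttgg
H2-Eb1 (chr17:34305761-34305827, plus strand): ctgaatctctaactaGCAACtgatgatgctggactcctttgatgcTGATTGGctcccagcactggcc
H2-DMb1 (chr17:34153082-34153149, plus strand): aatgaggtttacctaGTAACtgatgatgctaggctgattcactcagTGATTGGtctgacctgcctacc
H2-DMb2 (chr17:34145111-34145178, plus strand): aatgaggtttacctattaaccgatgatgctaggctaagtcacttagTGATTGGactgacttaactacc
H2-Oa (chr17:34092288-34092355, plus strand): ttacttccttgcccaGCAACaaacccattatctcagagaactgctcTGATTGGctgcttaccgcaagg
H2-Ob (chr17:34238803-34238867, plus strand): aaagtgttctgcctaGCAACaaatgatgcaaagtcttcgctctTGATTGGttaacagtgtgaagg

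Library totals ranged from 12918187 to 19665679 counts. For the targeted gene, Osbp2, at most 1 read was counted in a WT library and between 155 and 742 in an ORP4L KI library, so every library matched its label, although reads of the human knock-in and of mouse Osbp2 cannot be told apart. All 12 T-cell marker genes were detected in every library, with summed levels of 2360 to 3172 in WT and 1588 to 4470 in ORP4L KI, in CPM (counts scaled to library size, with TMM factors). All 14 granulocyte markers were higher in ORP4L KI, with sums of 1688 to 4898 CPM in WT against 10294 to 146067 CPM in ORP4L KI. ORP4L KI replicate 1 stood apart at the top of that range, and results that it moved are also given without it. The part of granulocytes in the class II values was not tested.

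All 10 class II presentation genes were lower in the ORP4L KI libraries than in the WT libraries. Their median log2 fold change was -1.21 (ORP4L KI over WT) against 0.01 over all genes tested, of which 48.5% were below 0. None of the 10 differences passed the adjusted threshold. By edgeR's quasi-likelihood test, 0 of the 10 genes reached a Benjamini-Hochberg adjusted p under 0.05, which 0.0149% of all genes did on the lower side and 0.0223% in either direction, and 10 of 10 had an unadjusted p under 0.05, which 6.86% of all genes did on that side. An unadjusted p under 0.01 together with a log2 fold change beyond 1 either way, the thresholds drawn in the study's volcano plot, was met by 4 of the 10, H2-Aa, H2-Ab1, H2-Eb1 and Ciita, against 2.3% of all genes on the lower side. DESeq2's Wald test and edgeR's likelihood ratio test each called 5 of the 10 lower at an adjusted p under 0.05, the same 4 and Cd74, where they called 2.72% and 2.69% of all genes. For 3 of the 10 genes, H2-Aa, Ciita and H2-Ob, every ORP4L KI library lay below every WT library. That pattern was shown by 7.38% of all genes. Most of the 10 genes moved together across libraries, so these counts are not of 10 independent observations. Without ORP4L KI replicate 1 all 10 genes were still lower, with log2 fold changes from -1.26 to -0.87, but the number past the volcano plot thresholds was 1. That number was 2 without ORP4L KI replicate 2 and 0 without WT replicate 1, WT replicate 2 or ORP4L KI replicate 4. It was 7 without WT replicate 3 and 9 without ORP4L KI replicate 3. With any 1 library left out, 2.39% to 6.03% of all genes were past these thresholds in either direction. Without WT replicate 2 only 4 of the 10 had an unadjusted p under 0.05.

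The RNAs of the classical chains, the subunits of the I-A and I-E molecules, were abundant in both groups. H2-Aa, the I-A alpha chain, was at 1953, 2831 and 1317 CPM in WT replicates 1 to 3 and at 712, 468, 1221 and 863 CPM in ORP4L KI replicates 1 to 4. Its groups did not overlap, but ORP4L KI replicate 3 lay just under WT replicate 3. The log2 fold change was -1.32 (SE 0.36, adjusted p = 0.14 by the quasi-likelihood test of edgeR), 2.49-fold lower in level. H2-Ab1, the I-A beta chain, was at 2610.4, 3879 and 1359 CPM in WT and at 694, 605, 1550.0 and 1153 CPM in ORP4L KI. Here ORP4L KI replicate 3 was above WT replicate 3, so that 3 of 4 ORP4L KI libraries lay below all WT libraries. The log2 fold change of H2-Ab1 was -1.39 (SE 0.42, adjusted p = 0.172 by the same edgeR test). H2-Eb1, the I-E beta chain, was at 2375, 3670.5 and 1474 CPM in WT and at 649, 617, 1506 and 1057 CPM in ORP4L KI. The order of its libraries matched that of H2-Ab1 at the overlap, with ORP4L KI replicate 3 above WT replicate 3, and its log2 fold change was -1.39 (SE 0.40, adjusted p = 0.15 by edgeR). C57BL/6 mice lack a working I-E alpha gene, and the row for that pseudogene, H2-Ea-ps, held at most 1 read in a WT library and at most 4 in an ORP4L KI library, too few to test.

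**Figure D1:**
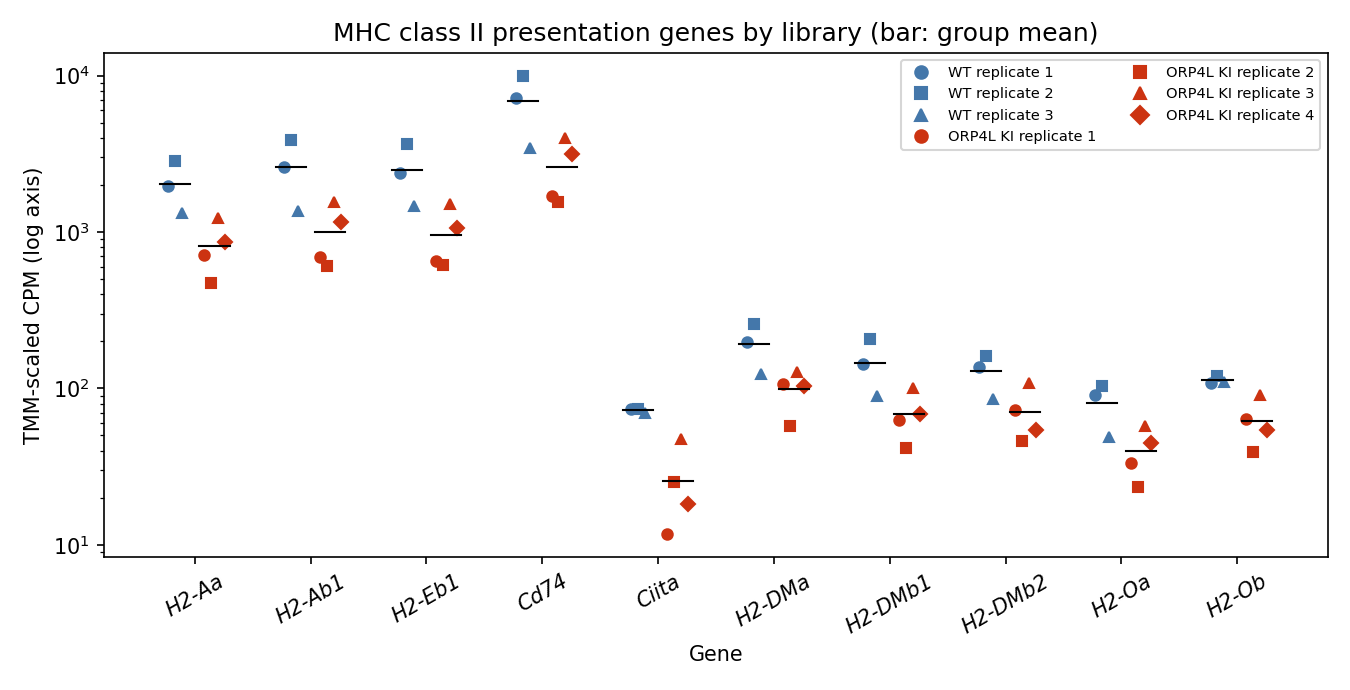
TMM-scaled CPM (log axis) of the 10 class II presentation genes in each of the 3 WT and 4 ORP4L KI libraries, with 1 point per library and a bar at the group mean. The libraries share an order across most genes, and the groups are separate for H2-Aa, Ciita and H2-Ob.

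Cd74, the invariant chain and chaperone of newly made class II molecules (GRCm38.p6 chromosome 18, 60803849 to 60812652), had the most reads of the 10. Its level was 7225, 9949.7 and 3432 CPM in WT and 1691, 1558, 3995 and 3167 CPM in ORP4L KI. WT replicate 3 was again inside the range of ORP4L KI, below replicate 3 and above the others. The means were 6869 ± 3273 CPM (SD, n = 3) and 2602 ± 1180.2 CPM (SD, n = 4), a log2 fold change of -1.40 (SE 0.44, adjusted p = 0.182 by edgeR). The counts of this gene merge its splice forms, which differ by an exon that inhibits cathepsins, so they cannot be told apart here.

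Ciita, the transactivator (chromosome 16, 10480014 to 10531064), and H2-Ob were the members that varied least among WT mice. It was at 74.0, 73.8 and 69.3 CPM in WT and at 11.7, 25.4, 47.6 and 18.3 CPM in ORP4L KI. All 4 ORP4L KI libraries were below all 3 WT libraries, and the lowest was replicate 1, not replicate 2 as for the other 9 genes. Its means of 72.4 ± 2.70 CPM (SD, n = 3) and 25.7 ± 15.6 CPM (SD, n = 4) gave a log2 fold change of -1.49 (SE 0.40, adjusted p = 0.129 by edgeR). Without ORP4L KI replicate 1 this value was -1.25, and without replicate 3 it was -1.97. WT replicate 2 exceeded WT replicate 3 by 1.07-fold for Ciita, against 2.90-fold for Cd74. The promoters from which Ciita is transcribed in dendritic cells, B cells and interferon-treated cells give different first exons, which the merged counts do not separate.

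The H2-DM chains load peptide onto class II in endosomes. H2-DMa, the alpha chain, was at 197, 257 and 124 CPM in WT and at 107, 57.2, 128 and 104 CPM in ORP4L KI. H2-DMb1, a beta chain, was at 144, 206 and 88.8 CPM in WT and at 62.5, 41.6, 100.2 and 68.7 CPM in ORP4L KI. H2-DMb2, the other beta chain, was at 137, 162 and 86.0 CPM in WT and at 72.7, 45.8, 108 and 54.4 CPM in ORP4L KI. For all 3 chains WT replicate 3 was lower than ORP4L KI replicate 3 and higher than the other ORP4L KI libraries. The log2 fold changes were -0.96 (SE 0.32) for H2-DMa, -1.10 (SE 0.34) for H2-DMb1 and -0.87 (SE 0.32) for H2-DMb2, with adjusted p values of 0.201, 0.177 and 0.269 by edgeR's quasi-likelihood test. The counts of the beta chains are uncertain as a pair, because 26.64% of the 50-base stretches of the annotated H2-DMb1 transcripts also occur in those of H2-DMb2, and how reads with several matches were counted is not stated. No other pair among the 10 genes and H2-Eb2 shared such a stretch.

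H2-Oa and H2-Ob encode the alpha and beta chains of H2-DO, the inhibitor of H2-DM that is best known from B cells. H2-Oa was at 90.4, 103 and 49.0 CPM in WT and at 33.1, 23.5, 57.4 and 44.8 CPM in ORP4L KI, with the groups overlapping at replicate 3 of each. Its log2 fold change was -1.02 (SE 0.34, adjusted p = 0.206 by edgeR). H2-Ob was at 108, 121 and 109 CPM in WT and at 63.6, 39.4, 91.3 and 54.6 CPM in ORP4L KI. Its groups did not overlap and the WT libraries lay close together, with a log2 fold change of -0.86 (SE 0.27, adjusted p = 0.178 by edgeR). In WT the chains of H2-DO therefore differed from each other in spread, with coefficients of variation of 34.9% for H2-Oa and 6.37% for H2-Ob. In ORP4L KI the coefficients were close to each other, at 36.96% for H2-Oa and 35.05% for H2-Ob.

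**Figure D2:**
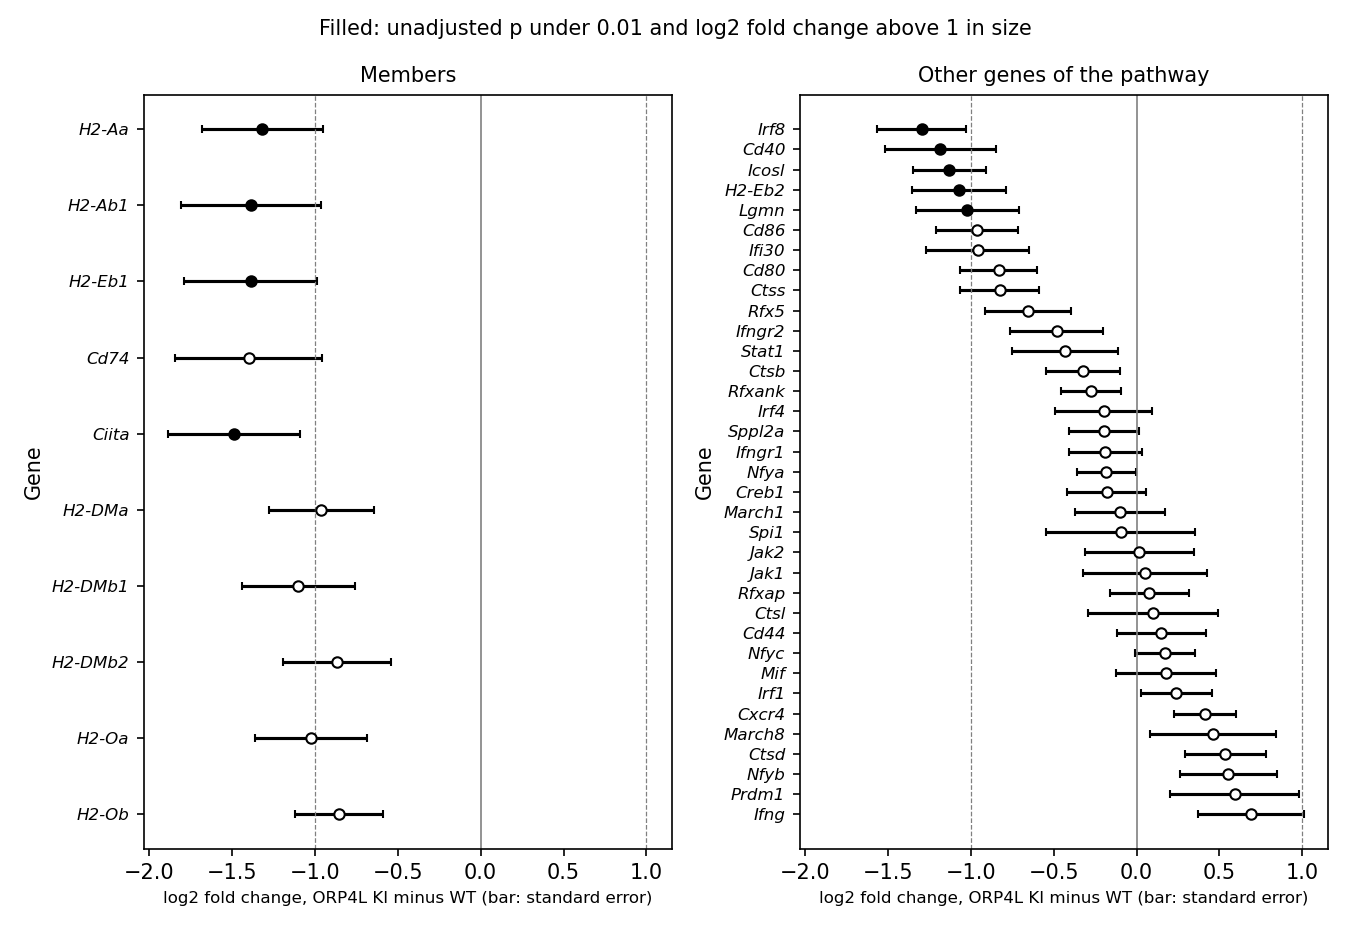
Log2 fold change (ORP4L KI over WT) from edgeR's quasi-likelihood test, with bars of 1 standard error. The left panel holds the 10 class II presentation genes and the right panel 35 other genes of the pathway. Filled points mark an unadjusted p under 0.01 with a log2 fold change beyond 1 either way. All 10 values on the left are below 0, from -1.49 for Ciita to -0.86 for H2-Ob, and none had an adjusted p under 0.05. On the right 21 are below 0 and 14 above.

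The 10 genes shared an order of libraries. WT replicate 2 was the highest WT library for 9 of 10 genes and WT replicate 3 the lowest for 9, while ORP4L KI replicate 3 was the highest of its group for 10 and replicate 2 the lowest for 9. WT replicate 2 exceeded WT replicate 3 by 2.85-fold for H2-Ab1, 2.49-fold for H2-Eb1 and 2.15-fold for H2-Aa, but by 1.10-fold for H2-Ob. In ORP4L KI the ratio of replicate 3 to replicate 2 lay between 1.88 for Ciita and 2.61 for H2-Aa. For most of these genes, the ratio between the highest and the lowest WT library was about as large as that between the group means. Added up, the 10 genes came to 14912, 21253 and 8109 CPM in WT and to 4096, 3480, 8804 and 6584 CPM in ORP4L KI. The sums overlapped, with means of 14758 ± 6574 CPM (SD, n = 3) and 5741 ± 2443 CPM (SD, n = 4). Their log2 difference was -1.35 (p = 0.0857 by a two-sided exact permutation test of the libraries). In bulk libraries, fewer cells of a type and less RNA per cell cannot be told apart.

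Per transcript length, the levels spanned a wide range. By the deposited RPKM (reads per kilobase of transcript, scaled to the library's reads), the WT means ran in the order Cd74 at 5865 ± 2555, H2-Ab1 at 2288 ± 998, H2-Aa at 1887 ± 609.8 and H2-Eb1 at 1569 ± 612 (SD, n = 3). The peptide-loading genes came next, with H2-DMa at 122 ± 36.8, H2-DMb1 at 119 ± 42.0, H2-DMb2 at 95.5 ± 25, H2-Oa at 80.8 ± 25.6 and H2-Ob at 44.6 ± 0.923, and Ciita was last at 14.1 ± 0.590. In ORP4L KI the order of the means was the same, from 2043 ± 966 for Cd74 to 4.67 ± 3.02 for Ciita (SD, n = 4). Neighbours that kept this order in every library included H2-Aa over H2-Eb1 and H2-Oa over H2-Ob. Cd74 exceeded H2-Ab1 by 2.38- to 2.70-fold, H2-Eb1 exceeded H2-DMa by 6.05- to 14.2-fold and H2-Ob exceeded Ciita by 2.96- to 11-fold in 7 of 7 libraries. Others did not: H2-Ab1 was above H2-Aa in 5 of 7, H2-DMa above H2-DMb1 in 5 of 7, H2-DMb1 above H2-DMb2 in 5 of 7 and H2-DMb2 above H2-Oa in 6 of 7.

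Relative to Cd74 in the same library, the classical chains differed little between groups. H2-Ab1 had 36.1 to 41.0 reads per 100 Cd74 reads over all 7 libraries, and the mean log2 ratio differed by 0.02 between the groups, with an SD of 0.07 in each (two-sided exact permutation test over 35 arrangements, p = 0.743, where the smallest p allowed is 0.0286). For H2-Aa and H2-Eb1 the differences were 0.05 (SD 0.27 in each group) and -0.01 (SD 0.19 in WT and 0.11 in ORP4L KI), with exact permutation p = 0.714 and p = 1. The peptide-loading genes were higher relative to Cd74 in ORP4L KI, by 0.43 for H2-DMa, 0.30 for H2-DMb1, 0.49 for H2-DMb2, 0.35 for H2-Oa and 0.46 for H2-Ob on the log2 scale, and all of these groups overlapped. Without ORP4L KI replicate 1 these differences were 0.20, 0.15, 0.27, 0.24 and 0.26 in the same order, and that of Ciita was -0.15. The smallest p was that of H2-Oa, at 0.0571 by the exact permutation test and 0.514 after Benjamini-Hochberg adjustment over the 9 ratios. Ciita went the other way, at -0.30 (exact permutation p = 0.571), and its SDs of 0.74 in WT and 0.69 in ORP4L KI were larger than that difference. None of the 9 ratios passed, and even the smallest p of this design would not pass adjustment over 9 if reached by 1 ratio alone. Other ratios among the 10 genes were not compared.

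**Figure D3:**
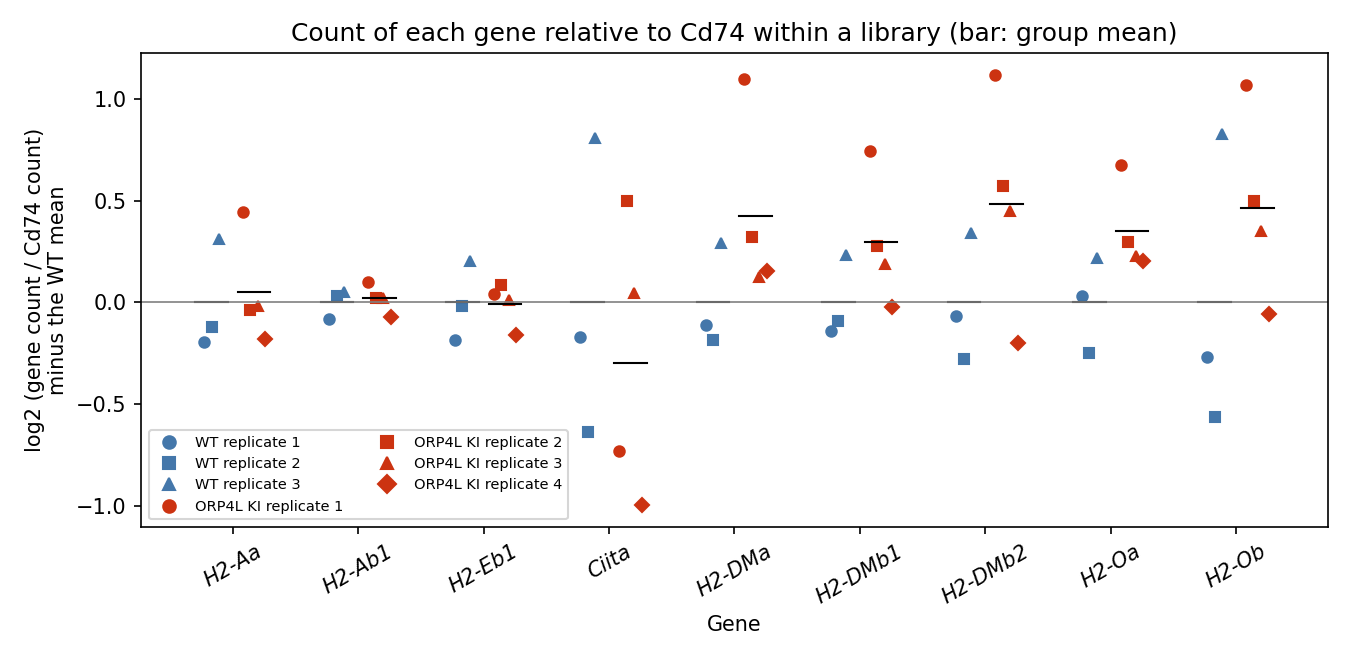
Log2 ratio of each class II presentation gene to Cd74 in the same library, as the difference from the WT mean of that ratio, with 1 point per library and a bar at each group mean. The points of H2-Ab1 lie closest together, those of Ciita and H2-Ob are wide in both groups, and the groups overlap for all 9 ratios.

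The wider pathway was covered by a list of 36 further genes for antigen processing, transcriptional control, turnover and costimulation, of which 35 were tested. Of these, 21 were lower and 14 higher in ORP4L KI, with a median log2 fold change of -0.18. At the volcano plot thresholds 5 of the 35 were called, all lower (2.3% of all genes were called on that side), and 0 reached an adjusted p under 0.05 by edgeR's quasi-likelihood test, while 10 had an unadjusted p under 0.05, all lower. The count of 5 became 1 without WT replicate 2 and 3 without ORP4L KI replicate 2 or 4. Irf8, a transcription factor of dendritic cell and B cell development, had the largest log2 fold change in size, at -1.30 (SE 0.27, adjusted p = 0.0708 by edgeR). It was at 375, 428 and 252 CPM in WT and at 108, 128, 198 and 137 CPM in ORP4L KI, with no overlap. H2-Eb2, a further class II beta chain gene beside H2-Eb1, was at -1.07 (SE 0.28, adjusted p = 0.126 by edgeR). It too did not overlap, with 29.9 to 35 CPM in WT and 11.5 to 24.5 CPM in ORP4L KI. Lgmn, a lysosomal protease that starts the cutting of the invariant chain, was at -1.02 (SE 0.31, adjusted p = 0.173 by edgeR).

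Costimulatory genes of antigen-presenting cells were lower as a group. All 4 on the list were below WT, including Icosl, the ligand of ICOS, at a log2 fold change of -1.13 (SE 0.22, adjusted p = 0.068 by edgeR), Cd40, which receives T-cell help, at -1.18 (SE 0.34, adjusted p = 0.147 by edgeR) and Cd86, a ligand of CD28, at -0.96 (SE 0.25, adjusted p = 0.117 by edgeR). Icosl and Cd40 were past the volcano plot thresholds and Cd86 was not. Their sum was 169.6, 249.8 and 172 CPM in WT against 97.0, 79.6, 117 and 99.0 CPM in ORP4L KI, and the groups did not overlap. The RFX and NF-Y subunits and Creb1, which bind the class II promoters, were divided, with 4 of 7 lower and 3 higher. Their median log2 fold change was -0.18, and 0 were past the thresholds. Every ORP4L KI library lay below every WT library for 1 of the 7 and above for 1. Of the 13462 genes tested, 993 lay below and 866 above in this way. Of the 7 processing genes 5 were lower, and Lgmn alone was past the thresholds. By edgeR's quasi-likelihood test 3 of the 7 had an unadjusted p under 0.05, all lower, against 6.86% of all genes on that side. The regulators, among them the interferon-gamma receptor and its kinases, were 6 lower and 5 higher of 11, and Irf8 alone was past the thresholds. March1 and March8, the ubiquitin ligases that remove class II from the surface, were at -0.10 and 0.46. The 3 genes of Cd74's ligand and partners were higher by small amounts, with a median log2 fold change of 0.18 and 0 past the thresholds.

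Marker lists of antigen-presenting cells were set beside the class II genes, since T-cell preparations can hold such cells. All 10 dendritic cell markers were lower in ORP4L KI, with a median log2 fold change of -1.51. At the volcano plot thresholds 8 of 10 were called lower, where 2.3% of all genes were called lower and 2.38% higher. An adjusted p under 0.05 by edgeR's quasi-likelihood test was reached by 1 of the 10, against 0.0149% of all genes on the lower side. The sum of this list, in which Itgax was the most abundant gene, was 605, 842 and 522 CPM in WT and 161, 215, 289 and 197 CPM in ORP4L KI. These groups did not overlap. Of the 12 B cell markers 11 were lower, with a median of -0.29 and 0 past the thresholds, and their sum was 673, 581 and 417 CPM in WT and 588, 238, 713 and 373 CPM in ORP4L KI. Of the 12 monocyte and macrophage markers 11 were lower, with a median of -0.78, and 3 were past the thresholds, 2 lower and 1 higher. The higher one was Ly6c2, a surface protein of inflammatory monocytes and the most abundant gene of the list, with counts made uncertain by its close paralog Ly6c1, at a log2 fold change of 1.27 (SE 0.37, adjusted p = 0.152 by edgeR) and at 237 to 356 CPM in WT and 416 to 1249 CPM in ORP4L KI. The sums of all 12 overlapped, with 927 to 1424 CPM in WT and 773 to 1830 CPM in ORP4L KI. Without Ly6c2 the sums of the other 11 did not overlap, with 652 to 1069 CPM in WT and 357 to 580.2 CPM in ORP4L KI. No marker of these lists was at 0 in any library. Plasma cell markers, which with T-cell markers completed the lists, had a median of -0.25 over the 5 of 6 tested, and the T-cell list had a median of 0.11, with 0 past the thresholds in each.

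The summed class II genes were then expressed per unit of each marker list in the same library. Per unit of the dendritic cell sum they were at 24.6, 25.2 and 15.5 in WT and at 25.5, 16.2, 30.5 and 33.5 in ORP4L KI. That was a log2 difference of 0.26 with overlapping groups (exact permutation p = 0.429). Per unit of the B cell sum they were at 22.2, 36.6 and 19.5 in WT and at 6.97, 14.6, 12.3 and 17.7 in ORP4L KI. All ORP4L KI values were below all WT values, with a log2 difference of -1.04. The exact permutation p was 0.0571, and 0.0857 after Benjamini-Hochberg adjustment over the 3 marker ratios. Per unit of the monocyte and macrophage sum they were at 15.0, 14.9 and 8.75 in WT and at 2.24, 4.50, 8.65 and 5.87 in ORP4L KI. These groups did not overlap, narrowly, with a log2 difference of -1.40 (exact permutation p = 0.0571, adjusted p = 0.0857), but that rested on Ly6c2. Without this gene the values were 22.9, 19.9 and 11.8 in WT and 7.06, 9.75, 21.6 and 16.5 in ORP4L KI. These overlapped, with a log2 difference of -0.48. Without ORP4L KI replicate 1 the log2 differences were 0.26 for dendritic cells and -0.77 for B cells. For monocytes and macrophages, with Ly6c2 included, that value was -1.03. The dendritic cell markers, and the monocyte and macrophage markers other than Ly6c2, were lower in ORP4L KI along with the class II genes, and the part of these cells in the class II difference was not tested.

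**Figure D4:**
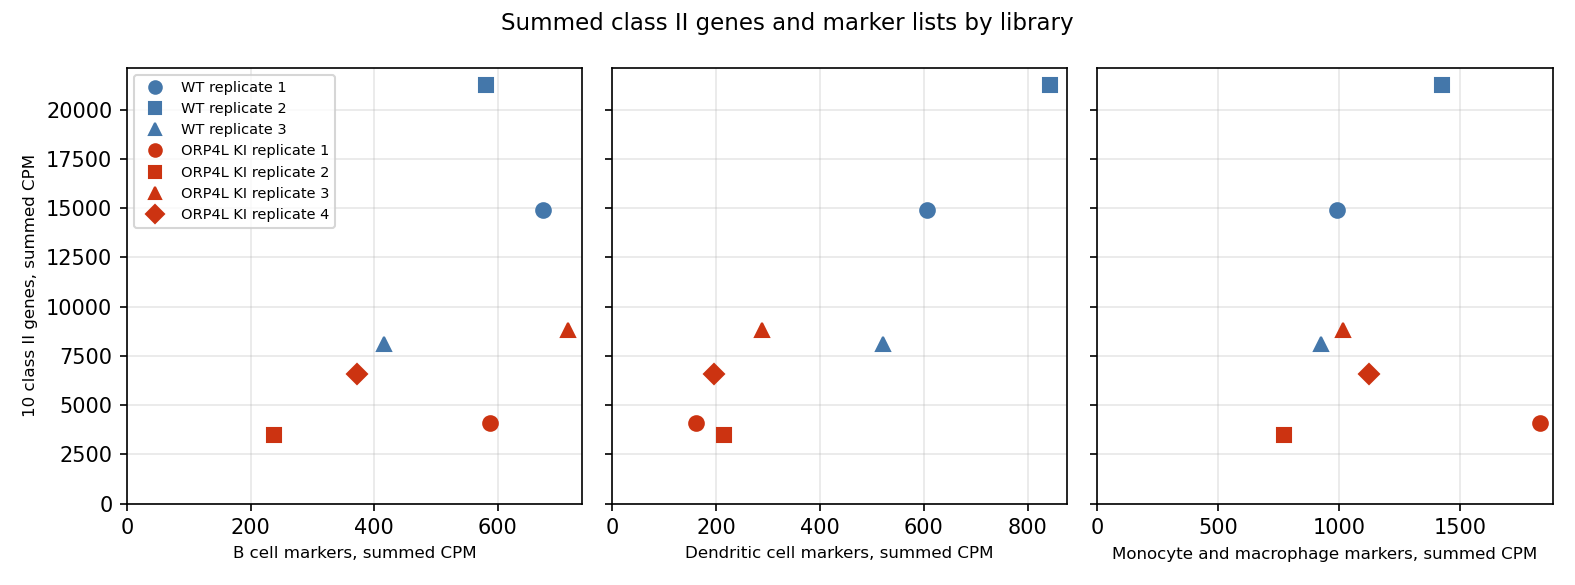
Summed CPM of the 10 class II presentation genes (y axis) against the summed CPM of B cell, dendritic cell, and monocyte and macrophage markers (x axes), with 1 point for each of the 7 libraries. The WT and ORP4L KI libraries are separate along the dendritic cell axis (522 to 842 CPM against 161 to 289 CPM) and overlap along the other axes, where the monocyte and macrophage sum includes Ly6c2.

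The genes whose levels followed the class II genes most closely were ranked by Pearson's r across the 7 libraries with the mean log2 CPM of H2-Aa, H2-Ab1, H2-Eb1 and Cd74. Among 9178 genes compared, members left out, the highest were Hes1 at 0.995, Isg20 at 0.989, Avpi1 at 0.984, Scpep1 at 0.983, Zfp385a at 0.982, Ccrl2 at 0.982, Cd40 at 0.981, Ppfibp2 at 0.979, Igfbp7 at 0.978 and Ccdc134 at 0.976. These values describe 7 libraries that also differ by group, and the highest of so many genes is high by selection. By the same measure H2-Oa was at 0.986 and H2-DMb1 at 0.985, within the range of these genes. H2-DMa at 0.949, H2-DMb2 at 0.915 and H2-Ob at 0.872 were lower, and Ciita was last at 0.813.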

How the data were processed

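RNA was extracted from T-cells of 4 ORP4L KI and 3 WT mice with Trizol and sequenced as mRNA libraries on an Illumina NovaSeq. The authors trimmed adapters, dropped reads under 17 nt, mapped the rest to mouse mRNA references with FANSe3, merged splice variants, and deposited for each gene its read count without normalization. The authors also deposited RPKM values, computed from the longest transcript. These were used for levels between genes. The aligner's version and its handling of reads with several matches are not given in the sources used here.

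The 10 genes, the pathway list and the marker lists were chosen with earlier results of these data known. Counts were tested in R 4.3.3 with edgeR 4.0.16 (filterByExpr, a minimum of 10 counts in enough libraries and a total of 15, TMM, quasi-likelihood test without covariates, Benjamini-Hochberg adjustment over 13462 genes). The standard error was the log2 fold change divided by the square root of F. Ratios to Cd74, ratios to marker sums and the summed level of the 10 genes were compared by a two-sided exact permutation test. Genes named were the 10, Osbp2, pathway genes past either threshold or among the 6 largest changes, and the 10 of highest likeness (mean log2 CPM of at least 3). Of the marker lists, the most abundant gene could be named. March1, March8, H2-Ea-ps, Creb1 and Nfyb fall outside this rule, their values having been seen before they were picked. The alternatives were other scaling, filters and tests (DESeq2 1.42.0's Wald test and edgeR's likelihood ratio test), the replicate number as a block, and each library left out. Leaving Ly6c2 out of the monocyte and macrophage markers was added after seeing the data. The tests were tested on simulated data. The labels do not say whether replicate numbers pair the libraries, so no block was used in the main test. No duplicate libraries were found. The p-values set the difference between groups against the spread between these mice. Tables and plots were made with Python 3.11.15, and promoters and positions came from RefSeq on GRCm38.p6.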

Additional observations from a re-analysis of the deposited data

Results flagged for a closer look

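In 58 sets of values over the 4 ORP4L KI libraries, 4 had a library far from the other 3, where chance gives about 2.9. The ratio of H2-DMa to Cd74 was 0.0630 in ORP4L KI replicate 1 against 0.0320 to 0.0367 in the others. H2-Eb2 was at 24.5 CPM in ORP4L KI replicate 3 against 11.5 to 12.8 CPM. Icosl was at 41.1 CPM in the same library against 26.8 to 28.4 CPM. Nfyb, an NF-Y subunit, was at 55.0 CPM in ORP4L KI replicate 1 against 26.7 to 27.0 CPM. ORP4L KI replicate 1 is also the library with the most granulocyte marker reads, and a link between these was not tested.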

How the results depend on the processing

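The median log2 fold change of the 10 genes lay between -1.46 and -0.90 over all 16 alternatives, and no single gene reversed. Of the 10 genes, 0 had an adjusted p under 0.05 except with DESeq2's Wald test (5) and edgeR's likelihood ratio test (5). The number past the volcano plot thresholds was 4. It became 7 without a filter, 10 with total counts alone, 7 with the Wald test and 7 with the likelihood ratio test. Of all genes 4.68% were past them in either direction, and 4.17%, 5.07%, 6.35% and 6.46% in the same order of alternatives. Leaving out 1 library gave 0 to 9 of the 10, and 2.39% to 6.03% of all genes. With total counts alone the median of all genes moved by -0.14, and 40.3% rather than 50.8% of genes called were higher. For the pathway list the count of 5 ranged from 1 to 7 with a library left out. Same-numbered libraries correlated at -0.53 to 0.15 and differently numbered ones at -0.39 to 0.51. So few pairs cannot decide whether the replicate numbers pair the libraries. With the replicate block, which leaves out ORP4L KI replicate 4, the counts were 1 of the 10 and 2 of the pathway list. For the same libraries without the block they were 0 and 3. Past the thresholds in either direction were 3.50% of all genes with the block and 3.32% without. For the summed genes, the log2 difference ranged from -1.73 to -1.04 with a library left out. The ratios to marker sums ranged from -1.22 to -0.77 for B cells, 0.03 to 0.48 for dendritic cells and -1.68 to -1.03 for monocytes and macrophages with a library left out. The last was -0.48 without Ly6c2, an alternative chosen after seeing the data.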
